A study of Mus musculus with 12 samples.

Results

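Of the 32867 genes in the gene table, 10 were taken as genes of Toll-like receptor signalling and are described here across the retinas of wild-type mice and of 3 mouse models of hereditary retinal degeneration. They were chosen by name: Tlr1, Tlr2, Tlr3, Tlr4, Tlr7 and Tlr9, which encode receptors, Cd14 and Ly96, which encode co-receptors, Myd88, which encodes an adaptor, and Irak4, which encodes a kinase. All 10 were found in the table, each once. Of these, 9 were called higher in Pde6b rd10 than in C3H retinas, Ly96 being the exception, beside 15.9% of all genes tested. In Pde6b rd1 0 of the 7 tested were called in either direction, beside 15.0% of all genes. In Prph rd2 it was 0 of 8, beside 4.57%.

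Toll-like receptors are sensors of the innate immune system. They bind molecules of microbes, and some also respond to molecules released by damaged cells. TLR1, TLR2 and TLR4 sit on the cell surface, where TLR1 pairs with TLR2 and where TLR4 needs MD-2, the product of Ly96, and is helped by CD14, while TLR3, TLR7 and TLR9 sense nucleic acids in endosomes. Most of the receptors signal through MYD88 to the kinase IRAK4, and from there to NF-kB and to genes of cytokines and chemokines, whereas TLR3 uses the adaptor TICAM1. In the retina, microglia, its resident macrophages, are known for expressing many of these receptors.

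RNA of whole retinas was sequenced in 4 groups of 3 samples. The wild-type group was C3H, with 1 sample each at postnatal day 13, 23 and 29. Pde6b rd1 retinas were taken at day 13, Pde6b rd10 retinas at day 23 and Prph rd2 retinas at day 29, each near the time at which most photoreceptors die in that model. Pde6b rd1 and Pde6b rd10 carry mutations of the same rod phosphodiesterase subunit, and Prph rd2 carries one of a structural protein of the photoreceptor outer segment. By the study's methods the C3H and Pde6b rd1 mice share the C3H background and the Pde6b rd10 mice are C57Bl6/J. For Prph rd2 the methods give C3H, and the strain label names C57BL6/J. The groups also differ in markers of sex, given below. Mutation, age, strain and sex therefore cannot be told apart where Pde6b rd10 is compared with any other group. Only the C3H sample of day 23 shares its age. The sources used here do not say whether a sample is 1 animal or a pool. Each Pde6b rd10 and Prph rd2 sample held RNA of both sexes, as given below, and so of more than 1 animal. The p-values measure only the spread between these samples, which may be technical and which in C3H includes age.

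The reads counted on genes numbered 17049495 to 24755890 per sample. At this depth 3 counts, taken here as the floor of detection, stood for 0.121 to 0.176 CPM, counts scaled to a common library size. The floor covers counting error only, as reads that carry no molecular identifier may be copies of one molecule. The retina's own markers were abundant, with 8 rod markers summing to between 2294 and 4740 FPKM. FPKM, fragments per kilobase of gene length and scaled to the reads on genes, is the authors' unit and allows levels to be compared between genes. Markers of sex were not balanced between groups. Counts of Xist, the RNA of the inactive X chromosome, lay between 8 and 10 in C3H and between 13428 and 83716 in the models, and 4 Y-linked genes had 0 counts in all Pde6b rd1 samples. Ddx3y, which is Y-linked, had 1481 to 2005 counts in C3H, 1056 to 1696 in Pde6b rd10 and 757 to 907 in Prph rd2. Each Pde6b rd10 and Prph rd2 sample thus held both Xist and Y-linked RNA.

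Upstream sequence is shown for 3 genes that rose and whose windows held a motif match. The motifs are those of factors that act in this pathway or in myeloid cells. Tlr1 and Tlr3 also rose and had a match, but are not shown. Windows of the 250 bases before a RefSeq start site on GRCm38.p6 were used for 6 of the 10 genes, 7 windows in all. The lack of a window for the other genes does not mean that they have no RefSeq start site. The lines give the part of a window that lies before any GENCODE exon of the gene overlapping it. They run 5′ to 3′ on the gene's own strand, with motif matches in capitals. The Myd88 stretch lies inside the annotated gene, whose 5′ end is at 119341411.
Tlr2, chr3:83841768-83841858, minus strand: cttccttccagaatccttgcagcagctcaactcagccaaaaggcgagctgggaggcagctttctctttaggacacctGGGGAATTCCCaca
Tlr9, chr9:106222348-106222597, plus strand: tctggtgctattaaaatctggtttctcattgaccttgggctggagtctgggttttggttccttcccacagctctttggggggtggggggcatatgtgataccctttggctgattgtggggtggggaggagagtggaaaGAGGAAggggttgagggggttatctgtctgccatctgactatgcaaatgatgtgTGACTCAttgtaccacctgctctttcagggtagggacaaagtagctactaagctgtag
Myd88, chr9:119340042-119340268, minus strand: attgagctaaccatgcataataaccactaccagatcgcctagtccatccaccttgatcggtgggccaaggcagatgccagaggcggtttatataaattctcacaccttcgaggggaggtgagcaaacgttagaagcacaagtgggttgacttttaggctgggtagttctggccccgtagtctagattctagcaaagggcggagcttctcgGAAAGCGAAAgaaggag

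Positions are counted from the RefSeq start site. In the Tlr2 window, a pair of overlapping matches to the NF-kB consensus began at -173 and -172 bases. GENCODE starts Tlr2 159 bases before that RefSeq site. The Tlr9 window held the PU.1 core GAGGAA at -112 and the AP-1 motif TGANTCA at -58, and the Myd88 window held the interferon-stimulated response element, a pair of GAAA blocks set 2 bases apart, at -40. On both strands and over 32851 windows of this length, 3.90% held the NF-kB consensus, 23.3% GAGGAA, 6.75% TGANTCA and 2.98% the interferon-stimulated response element. Of the windows not shown, that of Tlr3 held an NF-kB match at -211 and 1 of the 2 Tlr1 windows held GAGGAA at -23, while the other Tlr1 window and that of Irak4 held none of the 4 motifs. No part of the Tlr3 window lies before the GENCODE exons of the gene that overlap it. A match describes letters only and is neither a binding site nor a cause of any difference below.

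Levels of the 10 genes were low in C3H retinas. Myd88 led with 1.68 ± 0.292 FPKM (SD, n = 3), followed by Tlr3 with 1.05 ± 0.230 and Ly96 with 0.741 ± 0.0492. Irak4 reached 0.455 ± 0.0489 and Cd14 0.311 ± 0.130 FPKM. Tlr4, Tlr2 and Tlr7 followed with 0.181 ± 0.0403, 0.171 ± 0.0508 and 0.148 ± 0.0316 FPKM, and the ranges of neighbours from Irak4 down to Tlr7 overlapped, so that their order was not settled. Tlr9 at 0.0842 ± 0.0353 and Tlr1 at 0.0234 ± 0.00763 FPKM were the lowest, and Tlr1 had at most 2 counts in any C3H sample.

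The order differed in Pde6b rd10 retinas. Myd88 still led with 5.84 ± 0.380 FPKM, but Tlr2, the seventh in C3H, came next with 3.64 ± 0.372, ahead of Tlr3 with 2.83 ± 0.262. Cd14 followed with 2.03 ± 0.304 and Tlr7 with 1.43 ± 0.183 FPKM. Tlr4, Ly96, Irak4 and Tlr9 lay at 0.956 ± 0.0473, 0.954 ± 0.437, 0.780 ± 0.0374 and 0.772 ± 0.0306 FPKM, and each of these neighbours overlapped the next. Tlr1 remained last with 0.417 ± 0.0304 FPKM. Summed over the 10 genes, FPKM lay between 19.4 and 19.8 in Pde6b rd10 against 4.58 to 5.04 in C3H, 4.38 to 5.17 in Pde6b rd1 and 4.83 to 5.38 in Prph rd2. The share of Tlr2 in this sum was 18.5% in Pde6b rd10 and 3.51% in C3H.

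**Figure D1:**
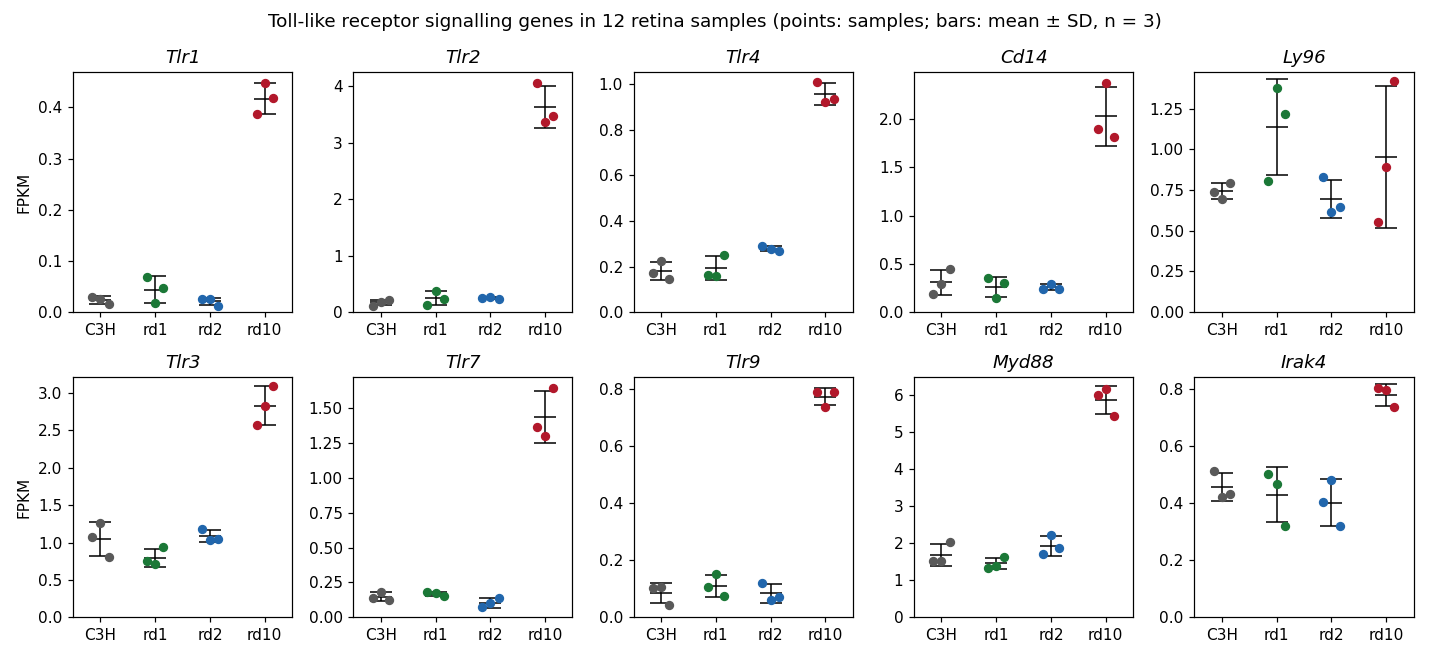
FPKM of each of the 10 genes (vertical axis, own scale from 0 per panel) in the 4 groups (horizontal axis), with 1 point per sample and bars for mean ± SD of 3 samples. The 3 Pde6b rd10 samples lie above all other samples for every gene except Ly96, which is also so for 18.5% of the 19616 genes tested, while 13.4% lie below all.

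The first comparison asked which of these genes differ between Pde6b rd10 and wild-type retinas. All 10 passed edgeR's filter on low counts and 9 were called higher. Tlr1, Tlr9 and Cd14, which the filter removed in Pde6b rd1 against C3H, passed here through their Pde6b rd10 counts. For them higher was the only call open, and the count and the median below include them. A call needs an unadjusted p under 0.05 and a difference of 1.5-fold or more, and 15.9% of the 18704 genes tested met this as higher, 8.08% as lower and 23.9% in either direction. None of the 10 was called lower. Their median log2 fold change was 2.48, against -0.00 over all genes tested. For single genes below, log2 fold changes over C3H carry their standard error, 95% intervals rest on the spread between samples as estimated by the fit, and adjusted p-values are from edgeR's quasi-likelihood test, corrected for all tested genes by the Benjamini-Hochberg method.

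Among the surface receptors, Tlr2, which senses bacterial lipoproteins, had 7, 13 and 13 counts in the C3H samples and 303, 190 and 210 in the Pde6b rd10 samples. The groups were far apart, with a log2 fold change of 4.34 ± 0.19 (SE, adjusted p = 7.08e-14). Of the 10 genes it had the largest fitted change, and it ranked 189 of 18704 by that measure. Tlr4, the receptor of bacterial lipopolysaccharide, had 19, 30 and 16 counts in C3H and 139, 96 and 104 in Pde6b rd10. Its log2 fold change was 2.33 ± 0.19 (adjusted p = 1.40e-09).

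Tlr1, the partner of TLR2, was at the limit of detection everywhere but in Pde6b rd10. It had 2, 2 and 1 counts in C3H and 32, 28 and 28 in Pde6b rd10. Against a floor of 3 counts per library it was at least 9.80-fold higher in Pde6b rd10 (adjusted p = 1.29e-07). Tlr1 lies beside its close paralog Tlr6, and how the counting treated reads that fit both is not given in the sources used here.

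The co-receptors split. Cd14, which passes lipopolysaccharide to TLR4, had 6, 11 and 14 counts in C3H and 74, 70 and 57 in Pde6b rd10, a log2 fold change of 2.64 ± 0.27 (adjusted p = 5.53e-08). Ly96, whose product MD-2 completes the TLR4 complex, had 15, 17 and 16 counts in C3H and 14, 17 and 29 in Pde6b rd10. Its groups overlapped and the difference was not called, with a log2 fold change of 0.28, a 95% interval from -0.43 to 0.99 and an adjusted p of 0.509. The upper end of this interval lies below the lower ends for Tlr4, at 1.93, and for Cd14, at 2.07, though the difference between genes was not tested.

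All 3 endosomal receptors were higher. Tlr7, which senses single-stranded RNA, had 11, 18 and 10 counts in C3H and 138, 99 and 134 in Pde6b rd10, with a log2 fold change of 3.19 ± 0.21 (adjusted p = 5.23e-11). Tlr7 is X-linked, and Xist differed between these groups as given above. The part of the sex of the animals in its change was not tested. Tlr9, a sensor of unmethylated CpG DNA, had 7, 9 and 3 counts in C3H and 68, 48 and 55 in Pde6b rd10, with a log2 fold change of 3.10 ± 0.30 (adjusted p = 2.00e-08).

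Tlr3, the sensor of double-stranded RNA, was the best measured of the receptors in C3H, with 111, 158 and 83 counts. In Pde6b rd10 it had 331, 276 and 322, and the log2 fold change of 1.36 ± 0.13 (adjusted p = 1.03e-08) was the smallest among the 6 receptors of the 10 genes. The antisense gene Gm45542 shares 381 exonic bases with it and had at most 1 count in any sample.

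Downstream of the receptors both genes were higher. The adaptor Myd88 had 77, 94 and 103 counts in C3H and 381, 296 and 279 in Pde6b rd10, with a log2 fold change of 1.75 ± 0.12 (adjusted p = 6.91e-11). Acaa1a, on the opposite strand, shares 290 exonic bases with it and rose by 0.98 ± 0.06 on the log2 scale (adjusted p = 1.16e-11). The kinase Irak4 had 51, 51 and 43 counts in C3H and 100, 75 and 74 in Pde6b rd10, with a log2 fold change of 0.73 ± 0.16 (adjusted p = 0.000867). Twf1 shares 395 exonic bases with Irak4 on the opposite strand, and its log2 fold change of 0.14 was below the threshold. The libraries keep the strand, but the strand setting of the counting is not given in the sources used here, so that reads in these overlaps cannot be assigned.

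Only the C3H sample of day 23 has the age of the Pde6b rd10 samples. Against that sample alone, with the spread taken from the Pde6b rd10 samples, the same 9 genes were called. Tlr2 then differed by 4.28 on the log2 scale, Tlr3 by 1.10, Myd88 by 1.89 and Irak4 by 0.83.

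**Figure D2:**
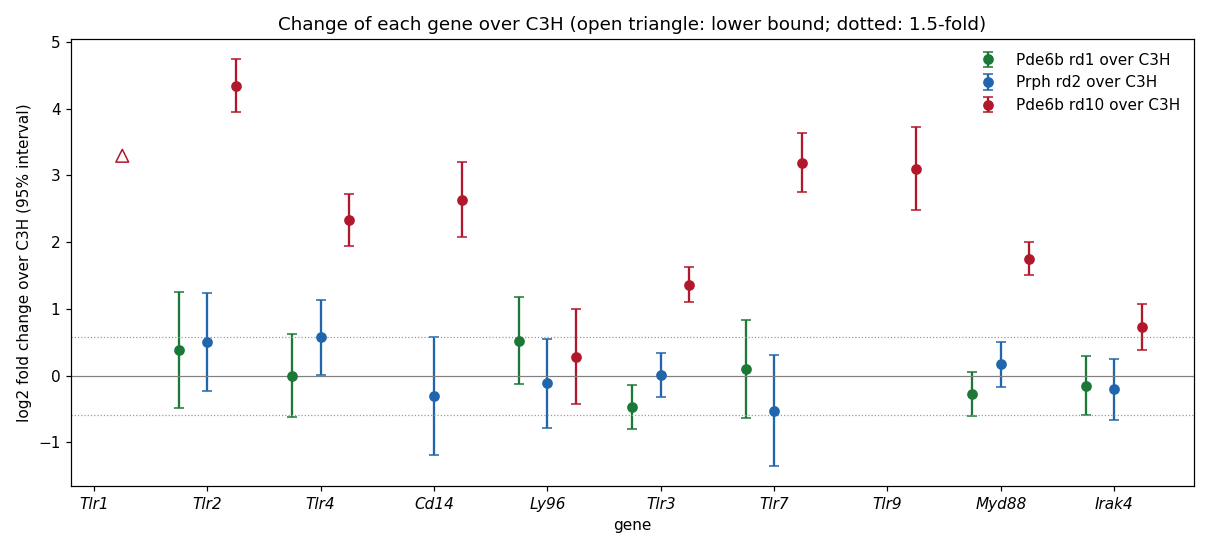
Log2 fold change over C3H (vertical axis) of each gene (horizontal axis) in each model, with 95% intervals of edgeR's quasi-likelihood test, dotted lines at 1.5-fold, and an open triangle for the lower bound of Tlr1. Genes removed by the filter on low counts have no point, and the Pde6b rd10 intervals exclude 0 for every gene with an interval except Ly96.

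In Pde6b rd1 retinas none of the genes was called against C3H. Of the 10, 7 passed the filter, Tlr1, Tlr9 and Cd14 being removed, and edgeR called 0 of 7, against 15.0% of the 18310 genes tested (8.98% higher, 6.03% lower). DESeq2 and limma also called 0. The 7 genes had a median log2 fold change of -0.00 and all genes tested one of -0.01. Only Tlr3 had an unadjusted p under 0.05. It had 85, 63 and 94 counts, and its log2 fold change of -0.47 ± 0.16 (adjusted p = 0.0203) did not reach 1.5-fold.

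Ly96 leaned the other way, with 18, 24 and 24 counts in Pde6b rd1, all above the 15 to 17 of C3H. Its log2 fold change of 0.52 ± 0.31 had an adjusted p of 0.191. Tlr2 had 8, 19 and 14 counts, which overlap its C3H range of 7 to 13, and its 95% interval ran from -0.48 to 1.25. For Tlr4 the interval ran from -0.62 to 0.62, for Tlr7 from -0.64 to 0.84, for Myd88 from -0.61 to 0.05 and for Irak4 from -0.59 to 0.29. Differences within these intervals were not detectable at this depth. Tlr1, Tlr9 and Cd14 had 1 to 5, 5 to 9 and 4 to 12 counts in Pde6b rd1.

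With 1 sample left out, a gene was called in Pde6b rd1 in 3 settings. Without C3H replicate 3 or Pde6b rd1 replicate 3, Tlr3 was called lower, with log2 fold changes of -0.63 and -0.61. Without Pde6b rd1 replicate 1, Ly96 was called higher, with 0.74.

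In Prph rd2 retinas edgeR called 0 of the 8 genes that passed the filter, against 4.57% of the 18581 genes tested (2.68% higher, 1.89% lower), and DESeq2 and limma also called 0. Tlr1 and Tlr9 were removed by the filter, with 1 to 2 and 5 to 10 counts. The median log2 fold change of the 8 was -0.05, and that of all genes tested was -0.00. Tlr4 had 38, 37 and 36 counts, all above the 16 to 30 of C3H. It alone had an unadjusted p under 0.05, and its log2 fold change of 0.57 ± 0.26 (adjusted p = 0.196) lay just under 1.5-fold. Without C3H replicate 2 it was called higher, with 0.77. Over all genes, leaving out Prph rd2 replicate 2 raised the calls from 850 of 18581 to 1435 of 18883.

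Tlr2 also lay above C3H in all Prph rd2 samples, with 18, 19 and 17 counts. Its log2 fold change of 0.50 ± 0.34 had an adjusted p of 0.420. Tlr7 had 7, 10 and 14 counts and a log2 fold change of -0.52 ± 0.39 (adjusted p = 0.458). The log2 fold changes of the remaining genes were smaller, with Myd88 at 0.17, Tlr3 at 0.01, Ly96 at -0.12, Irak4 at -0.21 and Cd14 at -0.30.

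The models were also compared with each other directly, as contrasts in 1 fit of all 12 samples. Against Pde6b rd1, 9 of 10 genes were called higher in Pde6b rd10, where 17.6% of the 19616 genes tested were called higher, 11.2% lower and 28.8% in either direction. Against Prph rd2 it was again 9 of 10, with 13.5% of all genes called higher, 6.16% lower and 19.7% in either direction. The uncalled gene was Ly96 in both, with log2 fold changes of -0.21 ± 0.33 (adjusted p = 0.609) and 0.41 ± 0.34 (adjusted p = 0.361). The medians of the 10 genes were 2.60 and 2.35. Both comparisons share the Pde6b rd10 samples with each other and with the comparison against C3H. In both, Tlr1, Tlr9 and Cd14 again passed the filter through their Pde6b rd10 counts.

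Values for the receptors show by how much Pde6b rd10 exceeded each of the other models. Tlr2 was higher by 3.99 on the log2 scale than in Pde6b rd1 and by 3.84 than in Prph rd2. For Tlr7 these differences were 3.12 and 3.72, for Tlr9 2.85 and 3.16, for Tlr4 2.36 and 1.76, and for Tlr3 1.86 and 1.36. Tlr1 was higher by 3.17 than in Pde6b rd1 and at least 11.1-fold higher than in Prph rd2, where all samples were under the floor. Cd14 differed by 2.92 and 2.94, Myd88 by 2.05 and 1.58, and Irak4 by 0.90 and 0.94. The adjusted p for Irak4, 0.000380 and 0.000292 by edgeR's test, was the largest among the 9 called genes in both comparisons.

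Other genes of the pathway were described from a list of 55, which holds the remaining receptors, their helpers, adaptors, kinases, transcription factors, inhibitors and target cytokines. Of 48 tested in Pde6b rd10 against C3H, 22 were called higher and 1 lower, with a median log2 fold change of 0.52, where 15.9% of all genes tested were called higher and 8.08% lower. In each of the other models 37 passed the filter. The genes added here passed it through their Pde6b rd10 counts, and all but Tlr12 were called higher. The filter thereby raised this count and this median. The list was chosen with earlier results of these data known, and it holds genes that other pathways use too. Beyond the 10 called genes with the smallest p, genes are named where a role had 5 or fewer called, which was decided after their values were seen.

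Of the 6 receptors on the list, 4 were tested and 3 called higher. Tlr13, a sensor of bacterial ribosomal RNA, had 21 to 23 counts in C3H and 93 to 128 in Pde6b rd10, a log2 fold change of 2.23 ± 0.19 (adjusted p = 2.34e-09). Tlr8 had 0 counts in all C3H samples and 23 to 38 in Pde6b rd10, at least 9.53-fold higher. Tlr6, with a log2 fold change of 0.88, was called at an adjusted p of 0.0736. Tlr8 and Tlr13 are X-linked like Tlr7.

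All 4 accessory proteins were called higher, among them Cd180, a receptor-like inhibitor of TLR4, by 3.49 ± 0.19 (adjusted p = 1.75e-12), together with its partner Ly86 by 1.54 and with Cd36 by 0.73. Lbp, which binds lipopolysaccharide in plasma, was at least 8.94-fold higher. Of 3 trafficking proteins only Unc93b1, which carries endosomal receptors out of the endoplasmic reticulum, was called, with 73 to 105 counts in C3H, 273 to 373 in Pde6b rd10 and a log2 fold change of 1.81 ± 0.14 (adjusted p = 4.02e-10). The adaptors Tirap and Ticam2 were called higher by 0.95 and 1.27, and Ticam1, the adaptor of TLR3, was at 0.43, below the threshold.

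Of the 13 shared kinases and ubiquitin ligases 1 was called, against 23.9% of all genes tested in either direction, and the difference between these shares was not tested. This was Ikbke, an interferon-linked kinase, at 2.12 ± 0.26 (adjusted p = 6.10e-07), while the median of the 13 was -0.07. IRAK4's partners Irak1 and Traf6 lay at 0.21 and -0.13. Of the 7 transcription factors 4 were called higher, Irf7 by 2.20 ± 0.09 (adjusted p = 1.78e-14), Irf5 by 2.08, Nfkb1 by 0.70 and Fos by 0.59. Of 9 negative regulators, Pik3ap1 and Irak3 were called higher by 2.90 and 2.82, and Tnfaip3, an inhibitor of NF-kB signalling, fell by 0.59 (adjusted p = 3.15e-11). Without C3H replicate 2 or without Pde6b rd10 replicate 1, 0 genes of the list were called lower.

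Target cytokines were at or under the floor in every C3H, Pde6b rd1 and Prph rd2 sample for all 10 on the list. In Pde6b rd10, 5 passed the filter, all through their Pde6b rd10 counts, so that higher was the only call open to them. All 5 were called higher. Ccl2, which attracts monocytes, had 144 to 244 counts and was at least 60.0-fold higher than C3H. Cxcl10, an interferon-induced chemokine, had 142 to 226 counts and was at least 57.4-fold higher. Il1b had 41 to 46 counts and was at least 14.6-fold higher, and Ccl3 and Ccl5 were at least 6.17-fold and 4.49-fold higher. Tnf, removed by the filter, had 8 to 24 counts in Pde6b rd10 and 0 in C3H.

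Fewer genes of the list were called in the other models. In Pde6b rd1, 37 genes were tested, with 3 called higher (Fos, Irf5 and Cd180), 3 lower (Tnfaip3, Irf7 and Sigirr) and a median of -0.10. These 6 of 37 lie near the 15.0% of all genes called in either direction, and they became 3 with DESeq2, without C3H replicate 3 or without Pde6b rd1 replicate 1, and 2 with limma on log2(FPKM + 1). In Prph rd2, 37 were tested, with 0 called higher, 4 lower (Fos, Tnfaip3, Irf7 and Tlr13) and a median of -0.07, where 2.68% of all genes were called higher and 1.89% lower. Irf7, a factor of the interferon response, ranged over 123 to 132 counts for C3H, 74 to 95 for Pde6b rd1, 33 to 55 for Prph rd2 and 540 to 721 for Pde6b rd10. Tnfaip3 fell in all 3 models, by 1.49 in Pde6b rd1 (adjusted p = 1.22e-20) and by 0.76 in Prph rd2 (adjusted p = 5.49e-08). Directly compared, 25 of 48 genes were higher and 0 lower in Pde6b rd10 than in Pde6b rd1, beside 17.6% and 11.2% of all genes. Against Prph rd2, 21 were higher and 1, Hsp90b1, lower, beside 13.5% and 6.16%. The last count became 0 without Prph rd2 replicate 3 or Pde6b rd10 replicate 2. In both direct comparisons the tested target cytokines and Tlr6, Tlr8, Lbp, Ticam2 and Irak3 again passed the filter through their Pde6b rd10 counts.

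**Figure D3:**
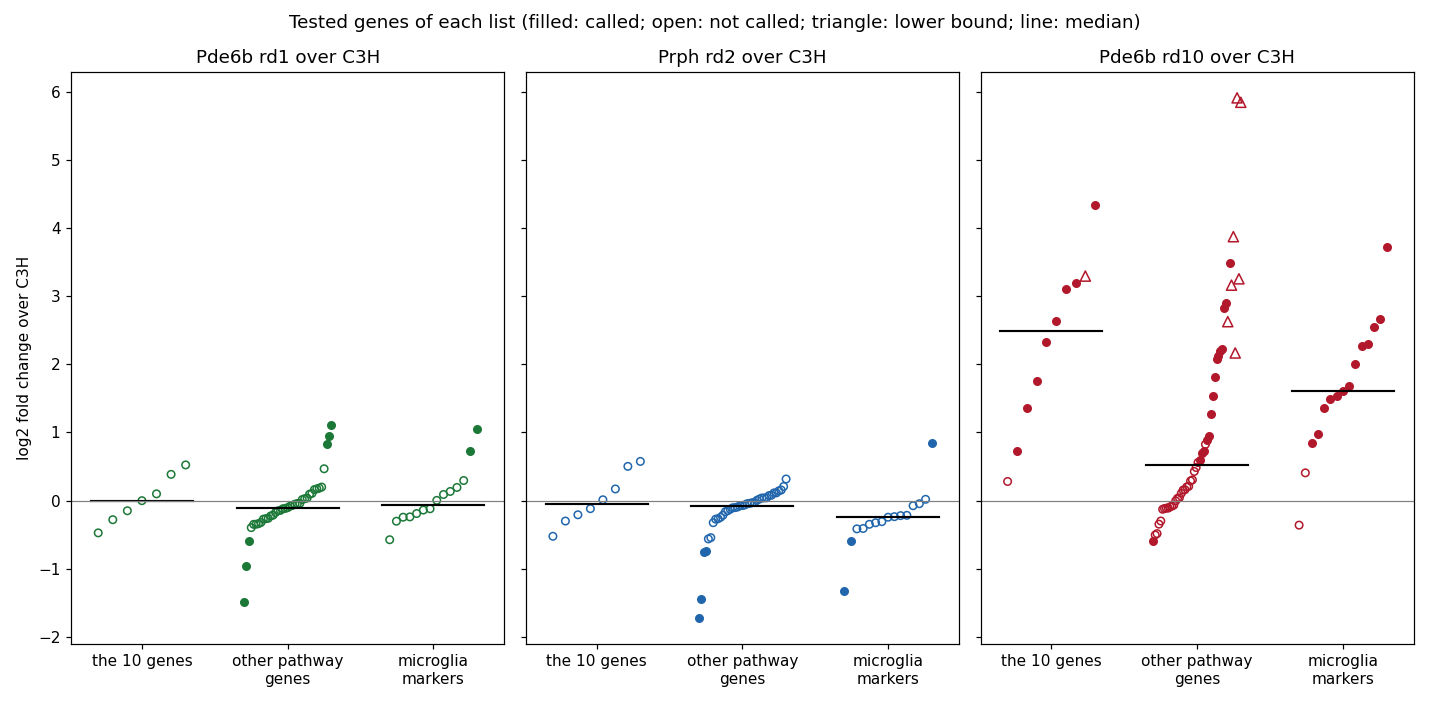
Log2 fold change over C3H (vertical axis) of the tested genes among the 10, among the other pathway genes and among the microglia markers in each model. Filled points were called, triangles are lower bounds, and lines are medians, which stand at 2.48, 0.52 and 1.60 for Pde6b rd10 and at -0.24 to -0.00 for the other models.

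Markers of the cells that carry these receptors differed between the same groups. In Pde6b rd10 against C3H, 13 of 15 microglia markers were called higher, with a median log2 fold change of 1.60, beside 15.9% of all genes called higher. Their summed level was 152 to 170 FPKM, against 50.3 to 52.4 in C3H, 51.5 to 53.7 in Pde6b rd1 and 45.5 to 48.1 in Prph rd2. The 2 not called were Sall1 and P2ry12, a marker of resting microglia, which had 152 to 180 counts in C3H, 100 to 177 in Pde6b rd10 and a log2 fold change of -0.36. Among the called markers, Aif1, removed by the filter in Pde6b rd1 against C3H, passed it here through its Pde6b rd10 counts.

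Of 10 monocyte and macrophage markers, 9 were tested and 8 called higher, beside 15.9% of all genes tested. With an adjusted p under 0.05 by edgeR's test as threshold, 7 were called. The list summed to 14.3 to 16.0 FPKM in Pde6b rd10 against 5.67 to 5.96 in C3H. Ccr2, Plac8, Mrc1, Cd163 and Ms4a7, removed by the filter in the other models, passed it here through their Pde6b rd10 counts. So did Ly6c2, removed in Pde6b rd1, with 5 to 18 counts in C3H and 14 to 24 in Pde6b rd10. Ccr2, the receptor for CCL2 on monocytes, had 0 to 1 counts in C3H, Pde6b rd1 and Prph rd2 and 103 to 169 in Pde6b rd10. The neutrophil list summed to 1.86 ± 0.334 FPKM (SD, n = 3) in Pde6b rd10 and to at most 0.170 in C3H. S100a8 had 6 to 11 counts against 0 to 1, S100a9 6 to 8 against 0 and Cxcr2 7 to 11 against 0, while Mpo was at or under the floor in both. The lymphocyte list summed to 0.938 ± 0.151 FPKM in Pde6b rd10 and to 0.133 ± 0.104 in C3H. Cd8a, the 1 lymphocyte marker that passed the filter, did so through its Pde6b rd10 counts. It was called higher, with 27 to 35 counts against 0 to 2 (adjusted p = 1.06e-07 by edgeR's test). Cd3e, Cd79a and Ms4a1 were at or under the floor in Pde6b rd10. Of 4 astrocyte markers 2 were called higher, Gfap among them with 6689 to 8620 counts against 709 to 889, and the 8 Müller glia markers had 2 called higher and 1 lower, where 23.9% of all genes were called in either direction. The part of any of these cells in the changes of the 10 genes was not tested, and in bulk retina more cells of a type and more RNA per cell cannot be told apart.

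Set against the summed microglia markers of the same sample, the 10 genes did not move alike. Tlr2 was 0.336% of that sum in C3H and 2.29% in Pde6b rd10, Tlr7 0.289% and 0.905%, Tlr9 0.164% and 0.486%, Cd14 0.609% and 1.27%, Tlr1 0.0455% and 0.262%, and Tlr4 0.353% and 0.602%. These 6 did not overlap between the groups and were higher in Pde6b rd10, as were 3.58% of the 18704 genes tested on this scale. Of the 6, Tlr1, Tlr9 and Cd14 were among the genes tested through their Pde6b rd10 counts, which favours a higher value there. Tlr3, with 2.05% and 1.78%, and Myd88, with 3.28% and 3.66%, overlapped. Ly96 with 1.45% and 0.603% and Irak4 with 0.888% and 0.490% were lower in Pde6b rd10 without overlap, as were 90.4% of all genes tested, since the sum they are divided by was higher. Tlr4 was 0.594% of the sum in Prph rd2. These shares depend on which markers are summed, and no test was made on them.

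**Figure D4:**
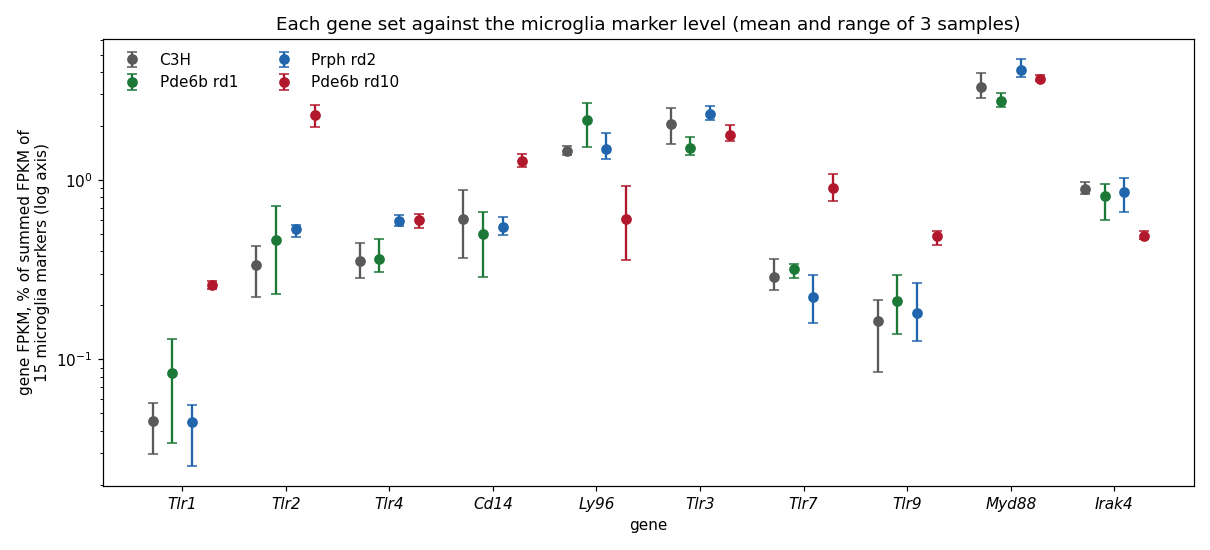
FPKM of each gene as a percent of the summed FPKM of 15 microglia markers in the same sample (vertical log axis), as mean and range of 3 samples for each gene and group (horizontal axis). Pde6b rd10 lies above C3H for Tlr1, Tlr2, Tlr4, Cd14, Tlr7 and Tlr9 and below it for Ly96 and Irak4.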

How the data were processed

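The authors removed adapter, unknown-base and low-quality reads, aligned the rest to GRCm38 and deposited counts of reads per gene made with HTSeq 0.11.2, without normalization. HISAT2 is named in the submitters' processing notes. The authors' FPKM values scale these counts to the length of each gene and to all reads on genes. The authors also deposited back-splice junction counts of circRNAs (TopHat2 2.1.1) and TPM values made from them, which no comparison used. The libraries keep the strand, and ribosomal RNA had been removed. The table gives one length per gene for all samples, and no columns belonged to other samples.

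Counts were tested for all genes together with the quasi-likelihood test of edgeR 4.0.16 under R 4.3.3, after filterByExpr and TMM normalization. The comparisons with C3H were fits of 6 samples, 3 of a model and 3 of C3H. Pde6b rd10 was set against the other models in contrasts of a fit with all 12. The study's thresholds were kept, an unadjusted p under 0.05 with a difference of 1.5-fold or more, and p-values were adjusted by the Benjamini-Hochberg method over all genes tested. A fold against a group in which every library had 3 counts or fewer is a lower bound against the mean of the libraries' floors of 3 counts. The 10 genes, the 55 other pathway genes and the marker lists were chosen with earlier results of these data known. All 10 genes are named. Of the pathway list, at most 10 called genes per comparison and direction were to be named, by smallest p. The alternatives comprised DESeq2 1.42.0, limma 3.58.1 with log2(FPKM + 1) and log2(FPKM + 0.1), RLE normalization, other filters, other sets of samples, the adjusted p as threshold, the replicate number as a block, and each replicate left out. The fits were tested on simulated data. Positions are from GENCODE vM21 and upstream sequences from RefSeq. Tables and figures were made with Python 3.11.15, pandas 2.3.3, numpy 2.4.6 and matplotlib 3.10.9.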

Additional observations from a re-analysis of the deposited data

Results flagged for a closer look

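In all, 3 genes of the pathway list moved in opposite directions over C3H in different models. The log2 fold change of Irf7 was 2.20 for Pde6b rd10, -0.59 for Pde6b rd1 and -1.72 for Prph rd2. In direct contrasts of edgeR's quasi-likelihood test, Pde6b rd10 exceeded Pde6b rd1 by 2.81 (adjusted p = 1.12e-13) and Prph rd2 by 3.92 (adjusted p = 4.40e-15). Fos stood at 1.11 for Pde6b rd1, 0.59 for Pde6b rd10 and -1.45 for Prph rd2, and Pde6b rd10 exceeded Prph rd2 by 2.04 (adjusted p = 2.15e-15 by the same test). Tlr13 was at 2.23 in Pde6b rd10 and -0.74 in Prph rd2, and the direct difference was 2.96 (adjusted p = 3.16e-10 by the same test). The contrast of Pde6b rd1 with Prph rd2 was not tested. The log2 fold changes over C3H share the C3H samples, and the direct contrasts share the Pde6b rd10 samples.

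In the circRNA table, which no comparison above used, 1 circRNA carries the name Irak4. It had 3 junction reads in Pde6b rd10 replicate 1 and 0 in the other 11 samples. It lies at chr15:94580944-94588305 on the minus strand, opposite to Irak4, and both of its ends fall in Twf1.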

How the results depend on the processing

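Against C3H and against both other models, 9 of the 10 genes were called in Pde6b rd10 under every alternative run except limma on log2(FPKM + 1), where 7 were called, since the added value of 1 brought Tlr1 (0.47, 0.44 and 0.47) and Irak4 (0.29, 0.32 and 0.35) under 1.5-fold. Leaving out 1 replicate gave 0 to 1 called genes in Pde6b rd1 and 0 to 1 in Prph rd2, as described above, and no other alternative gave a call in either. For the other pathway genes in Pde6b rd1, 6 calls became 3 with DESeq2, 2 with limma on log2(FPKM + 1), 3 on log2(FPKM + 0.1) and 3 to 6 with 1 replicate left out. Among the replicates left out, 3 came without C3H replicate 3 and without Pde6b rd1 replicate 1. In Pde6b rd10, limma on log2(FPKM + 1) gave 14 in place of 23 against C3H and 14 in place of 25 against Pde6b rd1.

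Signs changed only for genes that were not called. Tlr4 in Pde6b rd1, at -0.00, became 0.0087 with DESeq2, 0.0015 with RLE normalization, 0.00055 without a filter, 0.013 and 0.051 with limma, 0.0043 with the replicate block, 0.078 with the C3H sample of the same day, and -0.25 to 0.19 with 1 replicate left out. In that setting the sign also varied for Tlr2 (-0.014 to 0.74), Tlr7 (-0.012 to 0.29) and Irak4 (-0.29 to 0.020) in Pde6b rd1, for Ly96 in Pde6b rd10 (-0.12 to 0.60 against C3H, -0.62 to 0.091 against Pde6b rd1), and for Tlr3 (-0.14 to 0.18) and Cd14 (-0.54 to 0.038) in Prph rd2, and so did Myd88 in Prph rd2 (-0.10) with the C3H sample of the same day. The cause was not tested.

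Groups share replicate numbers, but nothing ties a number to an animal or a day across groups, and deviations of same-numbered samples correlated at -0.0911 to 0.230 across genes, so the numbers were not taken to pair the samples. With the replicate number as a block, 9 of the 10 genes were called in each Pde6b rd10 comparison and 0 in the other models, and 4434 in place of 4479 genes overall in Pde6b rd10 against C3H. At this depth, genes at 3 counts or fewer allow only bounds, and no age or strain was shared by all groups.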
